A study of Mus musculus with 11 samples.

Results

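With Notch cleavage blocked for 24 h, H3K27ac differed at many loci of the pre-T cell line Beko, which is of mouse origin. H3K27ac is the acetylated form of lysine 27 of histone H3 and marks promoters and enhancers in use. The account covers every H3K27ac region for which the authors compared cells given a gamma-secretase inhibitor (GSI) with cells given DMSO, 56342 of the 56342 regions listed, of which 25756 had an adjusted p for this comparison. Cells of the GSI group were treated with DAPT at 10 mg/ml, the dose as labelled, and cells of the control group with DMSO, each with 2 libraries of chromatin immunoprecipitation and sequencing made with a Diagenode antibody. The series holds 11 libraries in all: 2 further H3K27ac libraries after apicidin, a histone deacetylase inhibitor, at the labelled dose of 0.01 mg/ml, 2 libraries of the DNA-binding protein RBPJ from DMSO cells, and 1 input per treatment. All groups are of 1 cell line. The labels do not say whether the 2 libraries of each group are separate cultures, and p-values therefore measure only how far these libraries differ, which may be technical.

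The values are the authors' own. Their deposited table gives no value per library, so depth is unknown and each difference stands as a log2 fold change ± its standard error (SE), negative where acetylation was lower with GSI. The header names no reference, and DMSO was taken as such. Calls of higher or lower acetylation were made at an adjusted p of the authors under 0.05, and "fell" and "rose" are used of such regions. The base mean is the authors' mean normalised read count of a region over libraries and stands for its strength. The authors assigned each region to the gene symbol of a transcription start site, which may lie far away, so a symbol names a place and not a gene shown to be regulated by the region. Changes are relative to the authors' normalisation, and a shift shared by all regions cannot be seen.

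Notch receptors are cut by gamma-secretase after they bind a ligand on a neighbouring cell. The freed intracellular part enters the nucleus and joins RBPJ and Mastermind proteins on DNA, where acetyltransferases are recruited; without it RBPJ can sit with corepressors and deacetylases. In the thymus, Notch signalling commits progenitors to the T lineage and sustains the early stages up to the pre-T cell receptor, and in T cell leukaemia it drives growth, in part through Myc.

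The labelled cell type was compared with its markers. In the authors' deposited table, 10 of 10 T-lineage markers had H3K27ac regions, 8 of them a tested region over a start site, and the strongest region of these genes had a median base mean of 3192. Of the markers of other cells, regions were listed for 9 of 16 of B cells, 5 of 17 of myeloid cells, 5 of 13 of erythroid and megakaryocytic cells, 9 of 15 of natural killer and innate lymphoid cells, and 5 of 12 of fibroblasts and epithelia, with median strongest base means between 260 and 574. The defining genes Pax5, Ms4a1, Spi1, Csf1r, Mpo, Hbb-b1 and Col3a1 had no region listed.

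Promoters of genes whose start-site region both overlapped RBPJ and fell with GSI were searched for the letters that RBPJ is known to read, and 4 of those that hold the longer form are shown. The search was for TGGGAA, the core of the RBPJ site, and for GTGGGAA, which contains that core, on both strands of the 250 bases before each start in RefSeq (GRCm38.p6). Of 38 such genes found by symbol in the RefSeq table, 7 (18.4%) held GTGGGAA in at least 1 promoter. The core, alone or extended, was held by 9 (23.7%). Of all 27025 promoters, taken singly, 1669 (6.18%) held GTGGGAA and 24.1% the core. Some genes have several promoters, and a gene counted if any of them matched. Shares by gene and by promoter are thus of unlike units, and the former can be larger for that reason alone. Counted by gene in the same way, the longer form was found in 11.2% of 635 genes whose region overlapped RBPJ and was not called. It was found in 12.1% of 33 genes whose region overlapped RBPJ and rose. Of 205 genes whose region fell without an RBPJ overlap, 5.37% held it. For the core the order differed. By gene it was held by 23.7% of the RBPJ-overlapping genes that fell, 32.0% of those not called and 33.3% of those that rose. Genes that fell without an RBPJ overlap held the core in 19.0%. A match describes the letters of the window and not a bound site. The 4 promoters below are written along the strand of the gene, 5′ to 3′, ending at the base before the start, with GTGGGAA or its reverse complement TTCCCAC in capitals. They are Rag1 (chr2:101649533-101649782, minus strand), a subunit of the recombinase that assembles antigen receptor genes; AW011738 (chr4:156203034-156203283, plus strand); Tha1 (chr11:117873527-117873776, minus strand), a threonine aldolase gene; and Zfpm1 (chr8:122281891-122282140, plus strand), a cofactor of GATA proteins.
Rag1: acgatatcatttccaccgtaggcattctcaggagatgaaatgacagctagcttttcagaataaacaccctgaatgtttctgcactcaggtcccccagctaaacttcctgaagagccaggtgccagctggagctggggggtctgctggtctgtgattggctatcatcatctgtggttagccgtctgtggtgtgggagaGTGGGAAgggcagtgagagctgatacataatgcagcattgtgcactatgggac
AW011738: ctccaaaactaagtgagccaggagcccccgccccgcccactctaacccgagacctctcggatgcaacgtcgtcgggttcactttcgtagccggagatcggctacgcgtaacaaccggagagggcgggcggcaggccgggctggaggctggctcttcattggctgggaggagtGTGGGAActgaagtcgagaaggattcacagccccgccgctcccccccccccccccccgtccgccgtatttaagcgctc
Tha1: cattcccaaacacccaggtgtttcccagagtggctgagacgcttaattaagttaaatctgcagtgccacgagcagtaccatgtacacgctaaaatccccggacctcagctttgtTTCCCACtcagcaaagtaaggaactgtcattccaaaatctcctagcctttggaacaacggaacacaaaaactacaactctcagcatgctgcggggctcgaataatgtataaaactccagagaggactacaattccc
Zfpm1: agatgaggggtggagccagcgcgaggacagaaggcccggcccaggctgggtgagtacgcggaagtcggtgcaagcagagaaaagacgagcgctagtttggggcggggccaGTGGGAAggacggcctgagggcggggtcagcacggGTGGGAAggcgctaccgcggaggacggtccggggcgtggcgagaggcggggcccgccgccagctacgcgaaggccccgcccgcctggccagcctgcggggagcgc
The capitals begin 53 bases before the start in Rag1, 78 in AW011738 and 136 in Tha1, where they lie on the opposite strand, and at 140 and 105 in Zfpm1, the 1 promoter of the 7 with 2 copies. The start-site regions of these genes in the authors' deposited table had log2 fold changes of -1.12 ± 0.11 (Rag1), -1.15 ± 0.08 (AW011738), -0.81 ± 0.09 (Tha1) and -0.46 ± 0.09 (Zfpm1). The other 3 genes with the longer form were Tfam, Socs1 and Chd9. Coordinates of the H3K27ac regions below are on mm9, the build of the authors' processing notes, so promoters and regions were joined by symbol alone.

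Losses and gains were about equally frequent over the genome, and most were modest. By the authors' deposited table, 3553 of 25756 tested regions were called (13.8%), 1847 lower (7.17%) and 1706 higher (6.62%). The middle 50% of the lower regions had log2 fold changes from -0.76 to -0.41 with a median of -0.56, and those of the higher regions from 0.35 to 0.70 with a median of 0.49. By the authors' values 164 regions fell and 137 rose by at least 1, which is a 2-fold change. The remaining 30586 regions, below a split at a base mean of 72.1, had no adjusted p and were kept as untested. Calls became more frequent with strength, from 3.61% of the weakest 10% of tested regions to 31.5% of the strongest 10%. The changed regions were seldom promoters: 18.0% of the lower and 23.4% of the higher regions covered a start site, against 31.0% of those not called. The share called either way was 9.61% over start sites and 22.1% at more than 50 kb from one. By symbol, 1129 genes had higher regions and none lower, 1051 had lower regions and none higher, and 92 had both, of 10536 genes with a tested region.

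**Figure D1:**
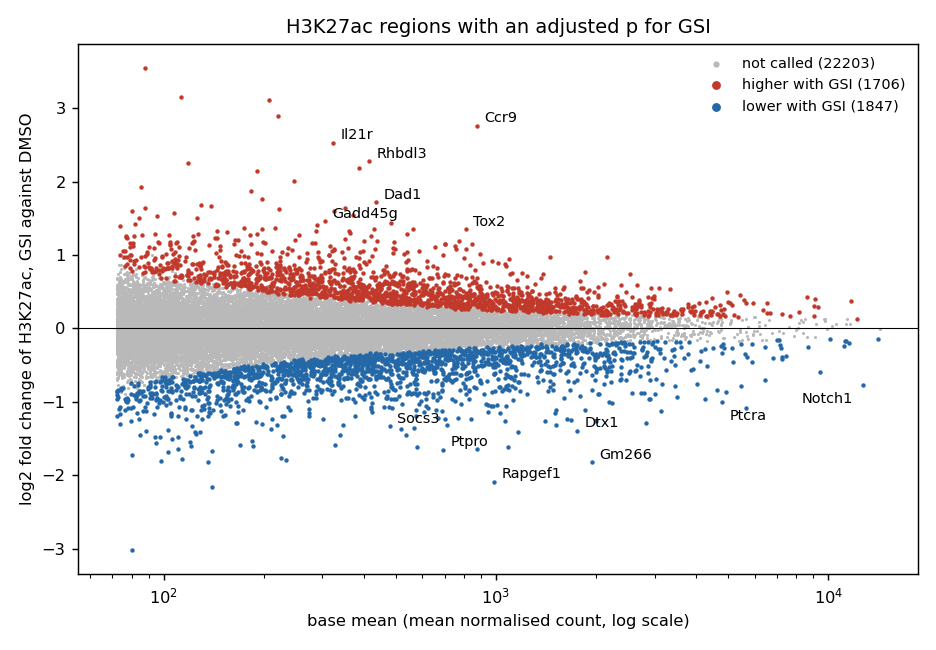
Each point is a tested H3K27ac region, placed by its base mean (log axis) and its log2 fold change with GSI against DMSO, both from the authors' deposited table. Red regions were higher (1706), blue regions lower (1847) and grey regions not called (22203). Named are some of the largest changes and the strong regions of Notch1 and Ptcra, which fell by 0.77 and 1.01.

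The Notch receptor genes themselves lost acetylation. Notch1, the main receptor of thymic progenitors, had its strongest region over the start site (chr2:26336543-26377124, base mean 12722, RBPJ-overlapping), which fell by 0.77 ± 0.05 in the authors' deposited table (adjusted p = 1.52e-50). Of its 5 other tested regions 4 fell, with values there from -0.94 to -0.40, the largest 36 kb from the start. For Notch3, a receptor gene that is itself a Notch target, 4 of 5 tested regions fell, by 0.93 ± 0.07 over the RBPJ-overlapping start site and by 1.07 ± 0.19, 0.80 ± 0.20 and 0.27 ± 0.10 beside it, per the authors' deposited table. Notch2 had a value of -0.34 ± 0.23 there (adjusted p = 0.380). The ligand gene Dll4 had an untested region, and the other 5 listed receptor and ligand genes had none listed.

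The loss extended to the direct transcriptional readouts of Notch, the HES and HEY repressor genes. At Hes1 the RBPJ-overlapping start-site region fell by 1.24 ± 0.15 and a second region 276 bp from the start by 0.67 ± 0.15 in the authors' deposited table. At Hey1 the start-site region fell by 0.48 ± 0.07, less than 2 regions 47 and 53 kb away, which fell by 0.88 ± 0.07 and 0.92 ± 0.07 there. Of the 9 tested Hey1 regions 8 fell, and the remaining one had a value of -0.22 ± 0.25 in the authors' deposited table. Heyl fell at both tested regions, by 0.89 ± 0.18 over the RBPJ-overlapping start site and by 0.52 ± 0.07 beside it, again in the authors' deposited table.

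Feedback genes of the pathway differed in where they changed. Dtx1, which encodes the Notch regulator Deltex, fell by 1.27 ± 0.08 over its start site and by 1.40 ± 0.09 at an RBPJ-overlapping region 19 kb away (chr5:121132301-121142431) in the authors' deposited table. Nrarp, an inhibitor of the Notch complex, had a start-site region at -0.10 ± 0.08 (adjusted p = 0.471), while 2 of its 3 other tested regions fell, the RBPJ-overlapping one 8.7 kb away by 0.43 ± 0.07, per the authors' deposited table. The start-site region of Rbpj, the DNA-binding partner itself, was at -0.11 ± 0.10 in the authors' deposited table (adjusted p = 0.550).

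On the list of recombination and pre-T cell receptor genes, which also holds Id1, 5 of 10 genes fell and 5 were not called. Of their 61 tested regions 11 fell and 0 rose. Over all tested genes 6.8% fell and 7.74% rose, and over all tested regions 7.17% and 6.62%. Ptcra, the alpha chain of the pre-T cell receptor, had 1 tested region over its start, which fell by 1.01 ± 0.06 in the authors' deposited table. Around the recombinase genes Rag1 and Rag2, 6 successive tested regions over 103 kb fell (chr2:101388681-101491411), with values in the authors' deposited table of -1.12 ± 0.11 over the Rag1 start, -0.96 ± 0.12 over the Rag2 start and -0.90 ± 0.09 at an RBPJ-overlapping region 68 kb from Rag2. Id1, an inhibitor of E proteins, fell by 1.05 ± 0.21 and Dntt, the terminal transferase of antigen receptor assembly, by 0.27 ± 0.05 in the authors' deposited table. For Il2ra, the alpha chain of the interleukin receptor that marks early thymocytes, 8 of 9 tested regions fell, with values in the authors' deposited table from -1.15 to -0.70. The strongest of them overlapped RBPJ 13 kb from the start (chr2:11538831-11551364) and fell by 0.96 ± 0.06, and 6 others followed each other within 18.7 kb on the other side of the start.

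At Myc the promoter changed less than distant regions. The region over the Myc start (chr15:61815096-61822757, RBPJ-overlapping) fell by 0.40 ± 0.06 in the authors' deposited table. Beyond it lies a long stretch without coding genes that is known in mice and humans to hold Notch-responsive enhancers of Myc, and the regions there carry the symbol Gm20740. Of 34 tested regions with that symbol, which lie from 0.89 to 1.62 Mb past the Myc region, 14 fell and 0 rose by the authors' DESeq2 calls (21 and 0 at an unadjusted p under 0.05). Of all tested regions 7.17% fell and 6.62% rose, and of those more than 50 kb from a start site 11.9% and 10.2%. An RBPJ-overlapping region 1.26 Mb past Myc (chr15:63082209-63087449) fell by 0.89 ± 0.08 and its neighbour (chr15:63087729-63094722) by 0.94 ± 0.08 in the authors' deposited table. With apicidin, which shares the DMSO libraries, the deposited values of these regions were 0.02 and 0.06.

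Taken by list, 19 of 21 known Notch/RBPJ targets had a tested region, and by the strongest region of each gene 11 fell, 1 rose and 7 were not called, with a median log2 fold change of -0.40. Over all 10536 genes, read the same way, 14.5% were called, 7.74% higher and 6.8% lower, and the median was 0.0064. The target that rose was Gata3, a T-lineage transcription factor, whose start-site region was at 0.35 ± 0.06 in the authors' deposited table, together with 3 of its 12 other tested regions (0.42 to 0.61). Targets that were not called included Tcf7 at -0.02 ± 0.06, Il7r at -0.05 ± 0.11, Cdca7 at 0.02 ± 0.07 and Runx1 at 0.11 ± 0.07, by the authors' deposited values. Of the 10 tested Tcf7 regions 1 fell, by 0.38 ± 0.10 there.

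Genes of the pathway's machinery are given beside the share over all tested genes, of which 7.74% rose and 6.8% fell. Of all tested regions 6.62% rose and 7.17% fell. Of 16 tested genes of gamma-secretase and Notch processing 1 rose, Furin, a protease that matures Notch receptors, by 0.45 ± 0.10 in the authors' deposited table, and 0 fell, against 3 higher and 2 lower by the authors' DESeq2 p-values under 0.05 unadjusted. None of the 8 tested genes of RBPJ and its coactivators was called, also at an unadjusted p of the authors' DESeq2 under 0.05 (0 higher, 0 lower), Ep300 lying at -0.01 ± 0.07 and Maml1 at -0.05 ± 0.10 in the authors' deposited table. Away from the strongest regions 2 of their 28 tested regions fell, and with each gene read at its region of smallest p 2 of these genes were lower. Of 16 tested corepressor genes 2 fell and 1 rose: among them Tle3, a Groucho corepressor, fell by 0.52 ± 0.09, and L3mbtl3, which binds RBPJ, rose by 0.77 ± 0.20 in the authors' deposited table. With each gene read at its strongest region over a start site, 0 corepressor genes and 0 genes of Notch processing were higher.

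**Figure D2:**
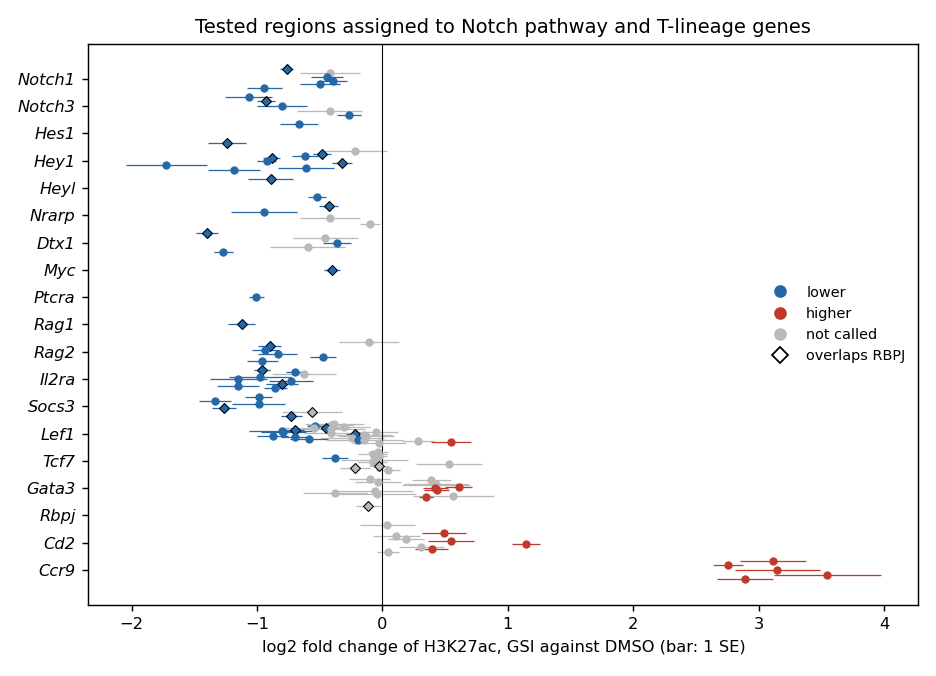
Each point is a tested H3K27ac region assigned to the gene named on the vertical axis, in order of position, and the horizontal axis is its log2 fold change with GSI against DMSO (bar, 1 SE) from the authors' deposited table. Blue regions fell, red regions rose, grey regions were not called, and diamonds overlap RBPJ. Called regions of Notch1, Notch3, Hes1, Hey1, Heyl, Nrarp, Dtx1, Myc, Ptcra, Rag1, Rag2, Il2ra and Socs3 all lie below 0, those of Gata3, Cd2 and Ccr9 above it, and Lef1 has called regions on both sides.

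Losses were frequent at RBPJ-overlapping regions away from promoters. RBPJ had been mapped in DMSO cells, and 1460 of the tested regions (5.67%) overlapped it. Of the 523 lying off a start site 99 fell (18.9%) and 29 rose (5.54%), whereas of 17616 other regions off a start site 8.04% fell and 7.25% rose, by calls from the authors' deposited table. Over start sites the shares were closer, 5.87% lower of 937 with RBPJ and 4.15% of 6680 without. RBPJ-overlapping regions are stronger, with a median base mean of 527 against 238, and calls were more frequent at strong regions, so the same shares were taken among the strongest regions. Among the strongest 25% and off a start site, 74 of 197 RBPJ-overlapping regions fell (37.6%) and 9.64% rose, against 18.4% lower and 17.5% higher of 2779 others. Among the strongest 10% they were 48.7% lower (58 of 119) and 11.8% higher, against 20.3% and 20.9%. Their median base mean was still higher there, 2002 against 1602. Of the 164 regions that fell by at least 1, 21 overlapped RBPJ (12.8%), and of the 137 that rose as much 0 did. Most called losses, 1693 of 1847, were at regions without an RBPJ overlap.

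**Figure D3:**
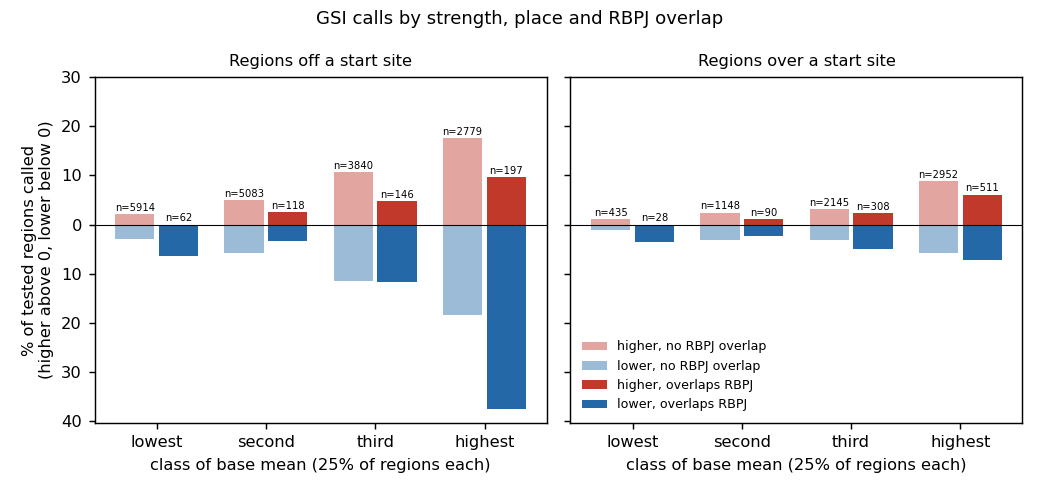
Bars give the percentage of tested regions called higher (red, upward) or lower (blue, downward) with GSI, in 4 equal classes of base mean, for regions with (dark) and without (pale) an RBPJ overlap, off a start site on the left and over one on the right, with n the number of regions. In the highest class off a start site 37.6% of RBPJ-overlapping regions were lower, against 18.4% of the others, and over start sites the bars reach at most 8.81%.

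Losses also clustered around the RBPJ-overlapping regions that fell. Of the 894 tested regions without an overlap that lay within 50 kb of an RBPJ-overlapping region that fell, 242 fell (27.1%) and 16 rose (1.79%), with a median log2 fold change of -0.23. Of 3499 within 50 kb of RBPJ-overlapping regions that did not fall, 137 fell (3.92%) and 206 rose (5.89%), with a median of 0.02. These classes were formed from called values and are a description. By distance alone, 10.6% of regions within 10 kb of any RBPJ-overlapping region fell and 4.20% rose, and beyond 500 kb 6.29% fell and 8.17% rose.

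Many losses lay side by side. A run was defined as 3 or more successive tested regions called in the same direction with gaps of at most 50 kb. There were 110 lower runs, which hold 416 regions (22.5% of those that fell), with a median span of 29.1 kb, and 67 higher runs with 225 regions (13.2% of those that rose) and a median span of 25.3 kb. An RBPJ-overlapping region was part of 41 of the lower runs (37.3%) and of 2 of the higher runs (2.99%). A share per run grows with the number of regions in it. By region, 49 of the 416 (11.8%) and 2 of the 225 (0.889%) overlapped RBPJ. Of all regions that fell 8.34% did, of all that rose 3.99% and of all tested regions 5.67%. A start site was covered in 34 of the lower and 23 of the higher runs, so most runs covered none.

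The longest lower runs had 9 regions each. One extended over 44.5 kb at Pitpnm2, a phosphatidylinositol transfer protein gene, and 4930568K20Rik (chr5:124659527-124704062), with values in the authors' deposited table from -1.11 to -0.52. The other covered 169 kb from the Hey1 start into the neighbourhood of Mrps28 (chr3:8662984-8831903), with 3 RBPJ-overlapping regions and values from -1.72 to -0.33 there. After 1 region that was not called (-0.26 ± 0.13), a further run of 6 Mrps28 regions began, with values from -1.43 to -0.41 in the authors' deposited table. The start-site region of Mrps28, which encodes a mitochondrial ribosomal protein, overlapped RBPJ and was at -0.06 ± 0.10 there, so the losses along the locus ended before that promoter. With apicidin, against the same DMSO libraries, the deposited run medians were -0.36 at Pitpnm2, -0.71 from Hey1 to Mrps28 and -1.06 at the further Mrps28 run.

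The single largest loss among regions of at least median strength was in the run at Rapgef1, a gene for an exchange factor of the GTPase Rap. Its 8 regions (chr2:29367868-29409581) had values in the authors' deposited table from -2.09 to -0.82, and the RBPJ-overlapping one at chr2:29397918-29401391 fell by 2.09 ± 0.10 (adjusted p = 1.12e-95). This block lies 66 to 106 kb from the assigned Rapgef1 start, whose nearest tested regions were at 0.01 ± 0.23 and -0.16 ± 0.07 there and were not called. Within the remainder of the locus 1 of the Rapgef1 regions rose, by 0.18 ± 0.06 in the authors' deposited table. The next largest loss, at Gm266 (chr12:112707455-112715455, RBPJ-overlapping), was -1.82 ± 0.07, and the neighbouring Exoc3l4 region was at -1.62 ± 0.10 in the authors' deposited table. With apicidin, against the same DMSO libraries, the deposited values were -1.43 ± 0.09 at the RBPJ-overlapping Rapgef1 region, -1.05 ± 0.07 at Gm266 and -1.03 ± 0.09 at Exoc3l4.

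On chromosome 9 losses lay around I730028E13Rik. The 7 regions of the run at I730028E13Rik and B930092H01Rik (chr9:61012303-61074949) had values from -1.78 to -1.02 in the authors' deposited table, and 11 of 13 tested I730028E13Rik regions fell in all. On one side, 1 of 4 tested Gm5122 regions fell (chr9:60901186-60906098), by 1.64 ± 0.11 in the authors' deposited table. On the other side, separate from the run, the start-site region of the corepressor gene Tle3 (chr9:61218535-61222824) fell by 0.52 ± 0.09 there. With apicidin the deposited values at the run had a median of 0.21, and those at Gm5122 and B930092H01Rik were 0.68 ± 0.10 and 0.72 ± 0.15, both called higher, against -1.64 and -1.45 with GSI. The comparisons share the DMSO libraries, and the difference between them was not tested.

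Losses in blocks were also found at Lhx3, Zcchc2, Socs3 and Lef1. A run of 6 at C330006A16Rik, the LIM homeobox gene Lhx3 and Qsox2 (chr2:26009817-26093929), with values from -1.26 to -0.60 in the authors' deposited table, was on chromosome 2. At Zcchc2 6 successive regions fell (chr1:107927523-107967625), with values there from -1.45 to -0.48 and no RBPJ overlap. At Socs3, a feedback inhibitor of cytokine receptors, 5 of 6 tested regions fell, from -0.73 ± 0.08 over the RBPJ-overlapping start site to -1.34 ± 0.13 at 32 kb in the authors' deposited table. Lef1, a transcription factor gene of early T cells, fell at 10 of 24 tested regions and rose at 1, with values there of -0.88 ± 0.13 for the largest, 54 kb from the start, and of -0.19 ± 0.06 over it.

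Some of the other named losses were in runs too, of 5 regions at Ptpro, 4 at Pcnx and Sipa1l1 and 3 at Emx1. Those at Ptpro had values from -1.76 to -0.85 in the authors' deposited table. At the named regions Ptpro, a receptor phosphatase gene, fell by 1.66 ± 0.24 and Sertad4 by 1.37 ± 0.22 there. The SEs of these 2 regions were 2.25 and 1.82 times the median of regions of similar strength. They are the least precise of the 15 largest losses. Pcnx (-1.36 ± 0.13), the homeobox gene Emx1 (-1.32 ± 0.10) and the RBPJ-overlapping region at the sorting nexin gene Snx10 (-1.32 ± 0.08) complete the 15 largest there. The deposited apicidin values, set against the same DMSO libraries, were -1.09 at Emx1, -0.92 at Pcnx, -0.56 at Snx10 and -0.53 at Lhx3. They were -0.38 at Sertad4, -0.26 at Socs3, -0.25 at Zcchc2, 0.02 at Dtx1, 0.17 at I730028E13Rik and 0.60 at Ptpro. By number of lower regions, Gm20740 (14 of 34 tested) led Tbc1d22a (12 of 26), Gm10007 (12 of 38), Gm6567 (11 of 15) and Mir5127 (9 of 19, with 2 higher). Of all tested regions 7.17% fell.

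**Figure D4:**
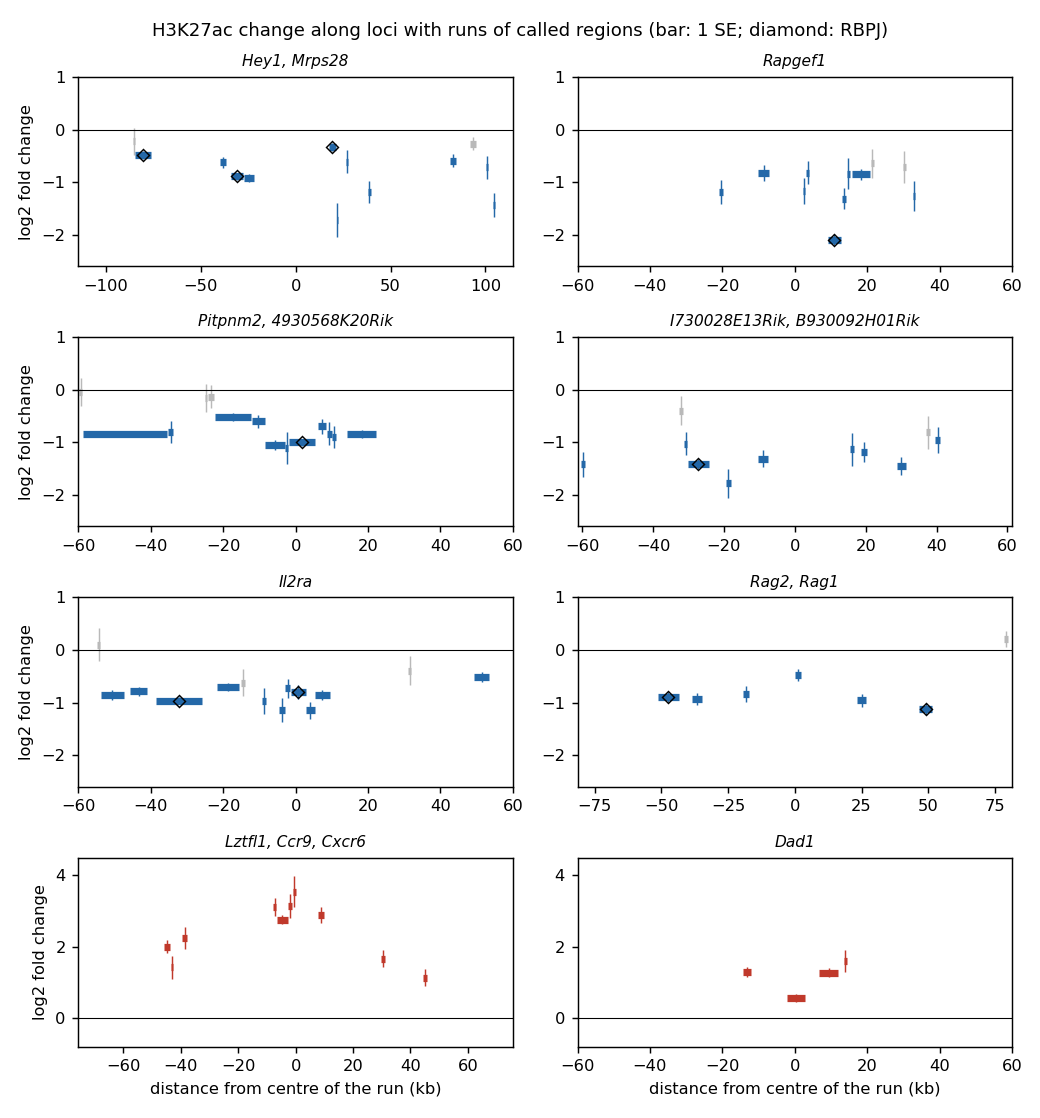
Each panel shows 1 locus with the tested H3K27ac regions as horizontal bars at their log2 fold change with GSI (vertical lines, 1 SE; authors' deposited table) against distance from the centre of the run. Blue regions fell, red rose, grey were not called, and diamonds overlap RBPJ. The upper 6 panels are runs of lower regions, 5 of them with values down to between -1.78 and -1.11 and Rapgef1 to -2.09, and the lower 2 are runs of higher regions, with Ccr9 between 1.13 and 3.55.

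The longest higher run for GSI lay at Ccr9, a chemokine receptor that guides thymocytes and gut-homing T cells, and its neighbours Lztfl1 and Cxcr6 (chr9:123624676-123716100). All 10 tested regions of this 91.4 kb run rose, with values in the authors' deposited table from 1.13 to 3.55. Its strongest region (chr9:123663938-123667668, base mean 876) rose by 2.76 ± 0.12 (adjusted p = 1.81e-110), and its region with the highest value, 3.55 ± 0.43, had a base mean of 87.9 there. With apicidin, which shares the DMSO libraries, the deposited median of the run was 2.71.

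The interleukin receptor gene Il21r rose by 2.53 ± 0.18, Rhbdl3 by 2.27 ± 0.15 and the adaptor gene She by 2.18 ± 0.16 in the authors' deposited table, at 21 to 39 kb from the assigned starts. Cd69, a surface receptor of activated and maturing T cells, rose at 3 of 4 tested regions, by 1.36 ± 0.13 at 8.3 kb and by 0.60 ± 0.14 over its start there. Gadd45g, a growth arrest and stress gene, rose over its start site by 1.46 ± 0.18 in the authors' deposited table. The remaining 8 of the 15 largest were Rab19, 9530091C08Rik, Gm1968, Kdr, Tiam1, Tox2, Parp11 and 2610019F03Rik, with deposited values from 1.33 to 1.64. The deposited apicidin values, set against the same DMSO libraries, were 2.32 ± 0.18 at Il21r, 2.23 ± 0.15 at Rhbdl3, 2.09 ± 0.16 at She and 2.36 ± 0.17 at Gadd45g.

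Gains were also found at regions with the symbols Dad1 and Stard3nl, genes that adjoin antigen receptor loci. Both are among the symbols with the most higher regions. Whether their regions lie inside or beside those loci was not determined. Dad1, a subunit of the oligosaccharyl transferase, adjoins the T cell receptor alpha locus, whose enhancer lies between them, and 7 of 9 tested regions with its symbol rose, with values in the authors' deposited table from 0.58 to 1.72. The region beside the Dad1 start itself was at 0.41 ± 0.23 there and was not called. Stard3nl adjoins the T cell receptor gamma locus, and 7 of its 14 tested regions rose, with values in the authors' deposited table from 0.32 to 0.66, among them an RBPJ-overlapping region of base mean 8632 at 0.42 ± 0.05. The start-site region of Stard3nl was at 0.08 ± 0.27 there. With apicidin, against the same DMSO libraries, the deposited value of the region of base mean 8632 was 0.01 ± 0.05.

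The transcription factor gene Maf rose at 7 of 12 tested regions, by 0.37 ± 0.09 over its start and by 0.98 ± 0.19 beside it in the authors' deposited table. Cd2, an adhesion receptor gene of T cells, rose at 4 of 8 tested regions, from 0.39 ± 0.13 over the start to 1.14 ± 0.11 at 9.8 kb there. By number of higher regions the table further gave Vmn2r96 (8 of 10 tested), 1500015O10Rik (7 of 10), Lrguk (7 of 20) and Pabpc2 (6 of 15). Of all tested regions 6.62% rose. Vmn2r96 belongs to a family of near-identical receptor genes, and reads over such copies may be shared. Its region of base mean 2154 lies 132 kb from the assigned start, and its runs covered no start site. Whether these regions hold copied sequence was not tested. The remaining long higher runs were at Cd200r3 and Ccdc80 (5 regions), Sp2 and Sp6 (5) and Alox5ap and Medag (4), with deposited values from 0.50 to 1.25.

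Gains at RBPJ-overlapping regions were small. Among regions of at least median strength, the largest were at Tmem123 (0.83 ± 0.15 and 0.53 ± 0.13) and AW549877 (0.58 ± 0.15) in the authors' deposited table. The AP-1 gene Junb (0.58 ± 0.13) and the semaphorin gene Sema4b (0.56 ± 0.11) were the others there. Under the same filter on strength, the 5 largest RBPJ-overlapping losses were between -2.09 and -1.32 there. They were at Rapgef1, Gm266, I730028E13Rik, Dtx1 and Snx10. Of the 68 RBPJ-overlapping regions that rose 57.4% covered a start site, and of the 154 that fell 35.7% did.

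Over all tested genes, each read at its strongest region, 7.74% rose and 6.8% fell, and over all tested regions 6.62% and 7.17%. This and the following lists stand beside those shares. No list was set apart from them by a test. Lists of T-cell genes held calls in both directions, apart from the RAG and pre-T cell receptor list. Of its 10 tested genes 5 fell (Ptcra, Rag1, Rag2, Id1 and Dntt) and 0 rose, also at an unadjusted p of the authors' DESeq2 under 0.05 (5 and 0), with a median of -0.23. Of 18 genes of CD3 and proximal T cell receptor signalling 3 rose and 3 fell: Prkcq rose by 0.36 ± 0.07, and Cd3e fell by 0.29 ± 0.06 in the authors' deposited table. T-lineage transcription factors gave 4 higher (Gata3, Ikzf1, Runx3, Tox) and 4 lower (Lef1, Ets2, Bcl11b, Gfi1) of 21, with Runx3 at 0.44 ± 0.10 and Ikzf1 at 0.29 ± 0.05 in the authors' deposited table. Over all 212 tested regions of these factors 27 were lower and 15 higher, and at the region of smallest p 10 genes were lower and 5 higher. Of 19 surface, homing and adhesion genes Ccr9 and Cd28 rose and Ly6d fell, the last by 0.43 ± 0.09 in the authors' deposited table. Cytokine receptors had 3 higher (Il21r, Tgfbr1, Ifngr1) and 3 lower (Il2ra, Il15ra, Il27ra) of 18, with Tgfbr1 at 0.69 ± 0.11 and Il15ra at -0.51 ± 0.10 there.

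Of 14 FOXO and quiescence genes 5 rose (Txnip, Sesn3, Ccng2, Pik3ip1 and Tob1), with deposited values from 0.21 to 0.34, and 0 fell (also 0 at an unadjusted p of the authors' DESeq2 under 0.05), with a list median of 0.18. Of their 88 tested regions 11 rose and 5 fell, and at the region of smallest p 8 genes were higher and 2 lower. In PI3K, AKT and mTOR signalling Inpp5d, a phosphatase that opposes the kinase, rose by 0.78 ± 0.18, Akt2 rose by 0.21 ± 0.07 and the kinase subunit gene Pik3r5 fell by 0.68 ± 0.09 in the authors' deposited table, of 18 genes. Of 19 Myc targets and ribosome biogenesis genes 1 fell, Nop56 by 0.49 ± 0.14 there, and 0 rose, against 3 higher and 2 lower by the authors' DESeq2 at an unadjusted p under 0.05. Cell cycle genes gave 3 lower of 23, the kinase gene Cdk6 (-0.32 ± 0.08), Ccne2 (-0.33 ± 0.09) and E2f2 (-0.21 ± 0.07), and 1 higher, a region 67 kb from Ccnb2 (0.66 ± 0.10), in the authors' deposited table. Of 19 immediate-early and feedback genes 5 rose, led by the phosphatase genes Dusp4 (0.51 ± 0.09) and Dusp6 (0.42 ± 0.07), and 2 fell, Socs3 and Socs1, the latter by 0.39 ± 0.05 there.

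Among the remaining lists, cell-cycle inhibitors had 1 gene higher of 9 (Gadd45g), the BCL2 family 1 lower of 9, Bid, by 0.54 ± 0.07 in the authors' deposited table, and the NF-kB pathway 0 of 15 (1 higher and 1 lower at an unadjusted p of the authors' DESeq2 under 0.05). Replication-dependent histone genes rose at 5 of 8, with deposited values from 0.27 to 0.44 and a list median of 0.29, and since these genes are clustered and nearly identical their regions and reads are not separate evidence. Housekeeping genes had 2 higher of 14, among them Actb (0.32 ± 0.06), and a median of 0.05 in the authors' deposited table. Of all tested genes 7.74% rose and 6.8% fell. Markers of other cells gave Gzma higher of 8 natural killer and innate lymphoid genes, Irf4 lower of 8 B-lineage genes, Tyrobp higher of 3 myeloid genes, Nfe2 higher and Gp9 lower of 5 erythroid and megakaryocytic genes, and 0 of 4 fibroblast and epithelial genes (1 higher and 0 lower at an unadjusted p of the authors' DESeq2 under 0.05).

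**Figure D5:**
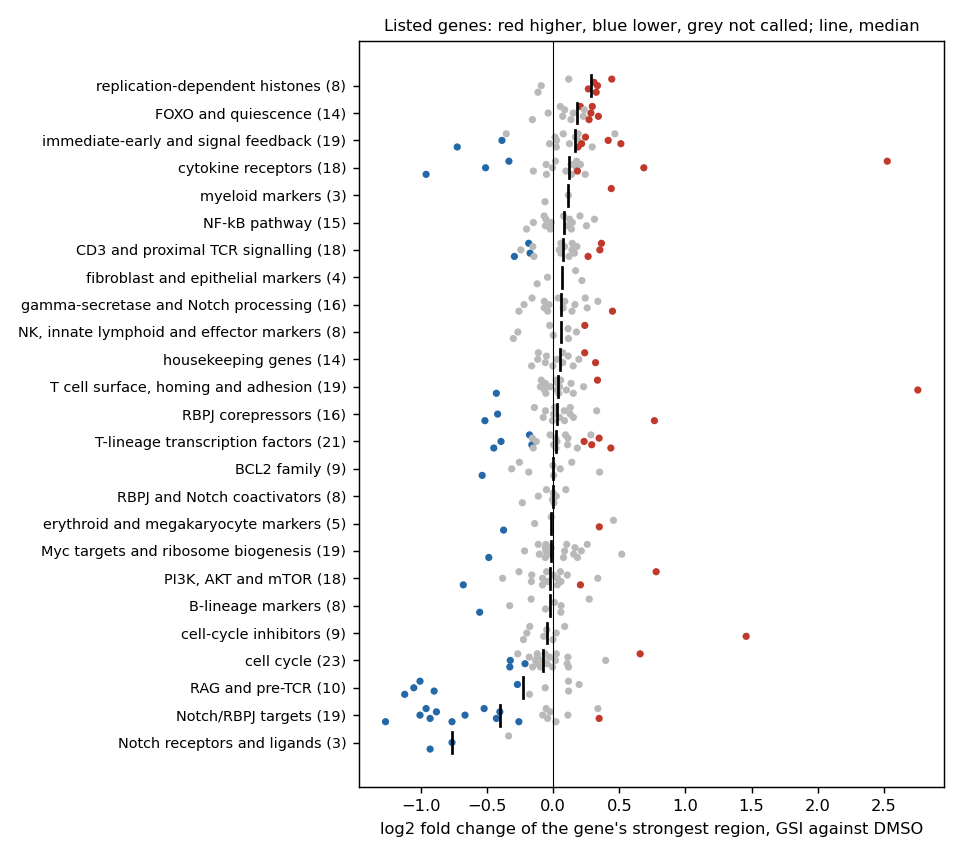
Each point is a listed gene at the log2 fold change of its strongest H3K27ac region with GSI against DMSO, from the authors' deposited table, with the number of tested genes in brackets and the list median as a black line. Red genes rose, blue fell and grey were not called. The 3 lists at the bottom, with medians of -0.77, -0.40 and -0.23, are not disjoint (Notch1 and Notch3 stand in 2 of them, as does Ptcra), and the other medians lie between -0.08 and 0.29.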

How the data were processed

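Reads were turned into regions and counts by the authors. The submitters' processing notes list FastQC, Bowtie2, SAMtools and deepTools (no versions) and the build mm9. How regions were called, how reads were counted and whether the inputs were used is not stated in the sources used here. Per the file headers, the deposited table of 56342 regions holds DESeq2 output for GSI and for apicidin, with no value per library. The base mean is a signal, deposited by the authors as a mean normalised count. The log2 fold changes, their SEs, the Wald score, the p-values and the adjusted p-values are likewise as deposited. Adjusting the authors' p-values again by Benjamini-Hochberg over the 25756 tested regions returned the deposited adjusted values within 1.03e-06.

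From these values calls at an adjusted p under 0.05 were counted by place, strength, RBPJ overlap, runs and 25 gene lists (408 genes), each gene entering with its region of highest base mean, using Python 3.11.15, pandas 2.3.3, NumPy 2.4.6 and Matplotlib 3.10.9, with code tested on simulated data. Classes, lists and runs were described and not tested, since regions are not replicates. Genes were named by rule. In each direction these were the 15 symbols with the largest change at a base mean no lower than the median of tested regions (249.7). Each way, the 5 largest RBPJ-overlapping changes under the same filter, the 8 symbols with most called regions and the 6 longest runs followed. Up to 4 genes of each list by smallest adjusted p and 13 genes of the Notch pathway and its surroundings were added. Further regions of these loci, Cd2, listed genes that were not called and the regions around Tle3 were described after their values were seen. A few genes that the rule names are not reported here. Members, lists and rules were chosen with earlier results of these data known. Alternatives were another threshold, other filters on base mean, centring, other gaps for runs and another region per gene.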

Additional observations from a re-analysis of the deposited data

How the results depend on the processing

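No paired analysis was possible because the deposited table holds no value per library, and for the same reason no library could be left out and no other normalisation fitted. At an adjusted p under 0.01 there were 2334 calls in place of 3553, 1103 higher and 1231 lower, and 64 lower and 31 higher runs in place of 110 and 67. Counts of calls under the other filters and centrings stayed within 1.5 times. Of RBPJ-overlapping regions 10.5% were lower and 4.66% higher; the lower share was 15.7% among the strongest 25%, 5.87% over and 18.9% off a start site and 8.84% at 0.01, and the higher share was 7.06% among the strongest 25% and 2.67% at 0.01. Of other regions 6.97% were lower (11.9%, 4.15%, 8.04% and 4.54% in the same order) and 6.74% higher (13.0%, 5.40%, 7.25% and 4.38%). The smaller shares at 0.01 follow from the stricter threshold; the cause of the other differences was not tested. With each listed gene read at its region of smallest p, 62 genes were lower and 61 higher in place of 37 and 38, and 2 Notch/RBPJ targets were higher in place of 1. Read that way, CD3 and receptor signalling genes gave 5 higher and 7 lower in place of 3 and 3, surface and homing genes 5 and 2 in place of 2 and 1, and NF-kB genes 1 and 2 in place of 0 and 0. At the strongest region over a start site, 10 list counts moved by more than 1.5 times. Higher genes were 0 in place of 1 for corepressors and Notch processing, and 1 in place of 3 for CD3 signalling and for cytokine receptors. Cell-cycle inhibitors had 2 higher in place of 1, and the BCL2 family 0 lower in place of 1. With centring, or with no filter on base mean, the 49 named regions kept their call and direction in 98 of 98 cases. This could hardly have come out otherwise and is no check of them. Centring subtracted 0.0093, leaving out the filter does not alter a fold change, and the regions were named from among the called ones. Depth is unknown, and the SE, with a median of 0.17, limits what weak regions can show.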

Other observations

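Regions on the X chromosome stood higher with GSI than those of the autosomes. Of 469 tested regions on X in the authors' deposited table, 42 rose (8.96%) and 3 fell (0.640%), the latter assigned to Sh2d1a, Elf4 and Kis2. On the 19 autosomes between 4.41% and 10.1% of regions fell and between 4.44% and 8.28% rose. The median log2 fold change on X was 0.09, against -0.03 to 0.03 on the autosomes, and 66.1% of X regions had a value above 0. The median was 0.06 over start sites and 0.14 off them, and it was above 0 in each of the 9 windows of 20 Mb that hold tested X regions, from 0.05 to 0.15. The shift is small beside the median SE of a single region, 0.17. The deposited apicidin values of the same regions, which share the DMSO libraries, had a median of -0.20. With apicidin the autosome medians were below 0 as well, from -0.16 to -0.04. Among the higher X runs was one of 4 regions at Gm14718 and Cd40lg, the gene for the ligand of CD40, with values in the authors' deposited table from 0.46 to 1.03.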
